A study of Mus musculus with 2 samples.

Results

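Transcripts for the subunits of mitochondrial oxidative phosphorylation were compared between 2 arrays of cultured mouse osteoblastic cells. The members were taken by gene symbol: the Nduf genes of complex I with a letter a, b, c, s or v and a number, the genes Sdha to Sdhd of complex II, the Uqcr genes of complex III, the Cox genes numbered from Cox4 to Cox8 of complex IV, and the Atp5 genes of complex V. This gave 164 of the 45101 probe sets, the groups of short oligonucleotides by which an Affymetrix array reads a transcript, and 81 of the 18194 genes. They were 35 genes for complex I, 4 for complex II, 8 for complex III, 17 for complex IV and 17 for complex V. The cells came from tibia and femur of C57Bl/6 embryos at stage E18.5. The heterozygous group was Ebf2+/- and the knockout group Ebf2-/-; in both, lacZ at the Ebf2 locus was the marker by which the cells were sorted with FDG, a substrate that turns fluorescent when the lacZ product cleaves it. All cells were expanded in culture without passaging, in alpha MEM with serum. Each genotype is represented by 1 array, without a wild type among those analysed here; 3 mice per genotype are named in the labels, where pooling of RNA is left unstated. With no replicate array there was no spread to test a difference against, so every value is a single measurement, no p-value was computed, and "higher" and "lower" describe these 2 arrays. In such bulk RNA, fewer cells of a type and less RNA per cell cannot be told apart.

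The respiratory chain of the inner mitochondrial membrane passes electrons from NADH (complex I) and succinate (complex II) through complex III and cytochrome c to oxygen at complex IV. The protons pumped on the way drive ATP synthase (complex V). Most subunits are encoded in the nucleus and a few in mitochondrial DNA, and several subunits of complex IV have an additional isoform limited to certain tissues. Osteoblasts use both glycolysis and respiration, and Ebf2 is known outside bone as a transcription factor of brown fat, a tissue rich in mitochondria.

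The promoters of nuclear respiratory genes are known for short motifs of the factors NRF1, YY1 and the ETS protein GABPA, so 4 of them are shown before the values. They belong to the members with the lowest ratio of knockout over heterozygote in complexes I, III and V and to the member with the highest, among genes above background on both arrays with a single RefSeq window. Each line holds the 150 bases upstream of the annotated start (RefSeq, GRCm38.p6, minus strand in all 4), with motif matches in capitals.
Ndufa6, chr15:82354292-82354441: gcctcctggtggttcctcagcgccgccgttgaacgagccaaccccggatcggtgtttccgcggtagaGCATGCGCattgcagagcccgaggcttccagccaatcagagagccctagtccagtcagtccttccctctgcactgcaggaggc
Uqcr10, chr11:4704345-4704494: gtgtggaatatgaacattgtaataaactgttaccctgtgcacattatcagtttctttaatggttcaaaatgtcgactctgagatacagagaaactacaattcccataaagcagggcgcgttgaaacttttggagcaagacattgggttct
Atp5h, chr11:115419920-115420069: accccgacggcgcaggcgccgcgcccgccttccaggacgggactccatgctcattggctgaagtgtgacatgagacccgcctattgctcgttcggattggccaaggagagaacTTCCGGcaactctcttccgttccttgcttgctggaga
Ndufa4, chr6:11907451-11907600: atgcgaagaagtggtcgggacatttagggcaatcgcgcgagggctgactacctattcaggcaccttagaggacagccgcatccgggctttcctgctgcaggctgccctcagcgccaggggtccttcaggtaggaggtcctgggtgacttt
The motifs searched, on both strands, were GCGCATGC for NRF1, CCGGAA for ETS proteins and ATGGCGGC for YY1. Windows of 300 bases, 250 before and 50 after the start, were found for 66 of the 81 member genes, 71 windows in all. The NRF1 letters were in 9 of these windows (12.7%), against 4.98% of the 12213 windows of measured genes and 2.71% of all 32851 windows. The ETS letters were in 27 (38.0%, against 26.5% and 14.9%). The YY1 letters were in 6 (8.45%, against 4.56% and 2.24%), all 6 in windows of complex I. At least 1 of the 3 motifs was in 35 member windows (49.3%), against 32.6% of those of measured genes. In the stretches shown, Ndufa6 has the NRF1 letters starting 83 bases upstream of the start and Atp5h the ETS letters 37 bases upstream, and Uqcr10 and Ndufa4 have none of the 3 in their windows. A match describes letters only, and these arrays did not measure binding.

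Of the 81 member genes 77 were measured, that is, above the background floor on at least 1 array, and 74 were above it on both. The floor was the 95th percentile of 86 probe sets for smell and taste receptors, a signal of 17.8 for the heterozygote array and 23.8 for the knockout array. The 4 genes not above it were Ndufb4, Cox7a1, Cox7b2 and Cox8b. Over all 11785 measured genes the median log2 ratio of knockout over heterozygote was 0.03, and 742 of them passed 2-fold upward and 408 downward. Different probe sets of one gene differed by a pooled SD of 0.44 in log2 ratio (4119 genes), and by 0.31 among members (40 genes). The 18 spike-in probe sets read 0.18 ± 0.15 (SD over probe sets) higher on the knockout array, and the 3' over 5' signal of beta-actin, which grows as RNA degrades, stood at 1.97 for the heterozygote array and 2.79 for the knockout array; whether this bears on the members was not tested. Ebf2 itself was near the floor: 1 probe set read 24.9 and 20.6, another 14.4 and 25.1, and the last was below the floor on both, so it did not separate the arrays.

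The respiratory genes as a whole were slightly lower in the knockout, and nearly all by less than 1.5-fold. Of the 77 measured members 58 had the lower signal in the knockout (75.3%, against 47.9% of all measured genes and 56.8% of their brightest 25%, which holds 70 of the members). Their median log2 ratio was -0.15, against 0.03 over all measured genes and -0.06 over the brightest 25%. All measured genes include 609, and the members 1, whose heterozygote signal lay between the floors and whose knockout signal was under its own. The floors keep the ratio of such genes from falling below 0, which raises the comparison values over all measured genes. Among genes above background on both arrays the median was 0.001, against -0.15 for the 74 such members. Scaling by the spike-in probe sets shifts every gene by the same amount and puts the median of all genes at -0.14 and that of the members at -0.32. Past 2-fold lay 1 member upward and 0 downward (all measured genes: 6.30% and 3.46%; brightest 25%: 3.66% and 1.32%). At 1.5-fold, 3 members were higher and 7 lower (all measured genes: 15.9% and 10.5%; brightest 25%: 9.30% and 6.92%). Of the 74 members above background on both arrays 57 lay within 0.44 of equal signal, 77.0%, against 63.2% of all such genes and 72.6% of the brightest 25%.

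**Figure D1:**
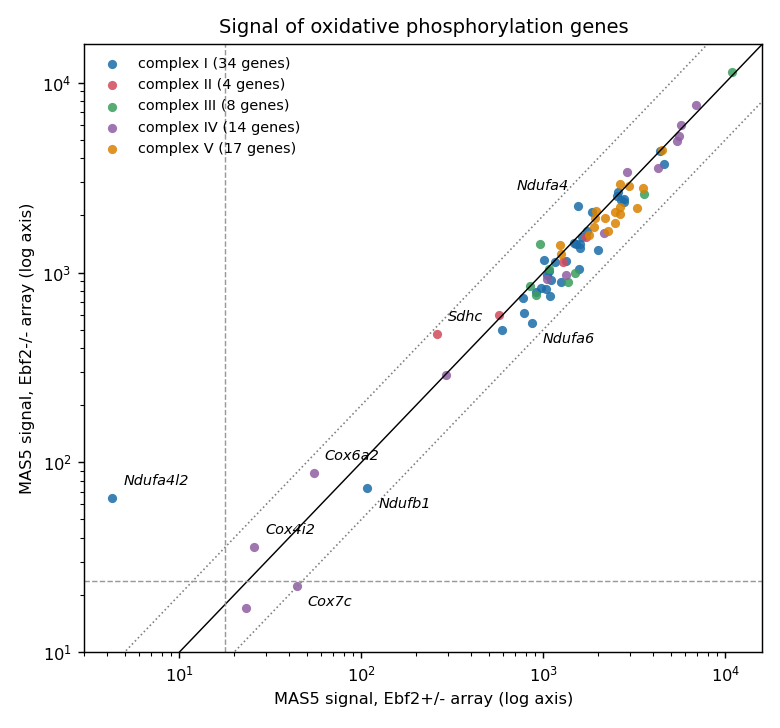
MAS5 signal of the 77 measured members on the Ebf2+/- array (horizontal, log axis) and the Ebf2-/- array (vertical, log axis), 1 point per gene, coloured by complex. The solid line is equal signal, dotted lines are 2-fold and dashed lines the background floors (17.8 and 23.8). Nearly all points lie between the 2-fold lines, and Ndufa4l2 lies outside them.

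Complex I was lower in most of its genes. Of its 34 measured genes 29 had the lower signal in the knockout, and the median log2 ratio was -0.18, a 1.13-fold lower signal. The 6 core subunits among the members, part of the conserved path of electrons from NADH to quinone, were all lower, with a median of -0.18. Ndufv1, the flavoprotein that binds NADH, read 779 and 614 (here and below the heterozygote first, the knockout second), 1.27-fold lower. The iron-sulphur subunit Ndufv2 read 1584 and 1339 by its brightest probe set, 1.18-fold lower, and 2 others gave 1.58-fold and 1.61-fold lower. Ndufs1, the largest iron-sulphur subunit, read 590.2 and 501, Ndufs7 1054 and 965, Ndufs3 1069 and 1024, and Ndufs8 1468 and 1423, although the probe sets of Ndufs8 were mixed. By the brightest probe set none of these 6 reached 1.5-fold.

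The accessory subunits, which surround the core and are needed for its assembly and stability, held the lowest single ratios of complex I. As groups they did not all lie under the core, whose median was -0.18. Among 12 Ndufa genes 10 were lower, with a median of -0.08. Of 12 measured Ndufb and Ndufc genes, most of them parts of the membrane arm, 11 were lower, with a median of -0.20. Ndufb9 read 2007 and 1317, 1.52-fold lower, and its second probe set 1994 and 1283, 1.55-fold lower. Ndufb1 read 108 and 73.5, 1.47-fold lower, and Ndufb6 1257 and 895, 1.41-fold lower. Ndufa6, an accessory subunit of the matrix arm whose promoter is shown above, had the lowest ratio of complex I with 869 and 539, 1.61-fold lower. Ndufs5, an accessory subunit of the membrane arm, read 1579.6 and 1047, 1.51-fold lower, and Ndufa9, which sits near the quinone site, 1095 and 755, 1.45-fold lower. Ndufa6, Ndufs5, Ndufb1 and Ndufa9 each rest on 1 probe set. At the other end Ndufa3 (4381 and 4374), Ndufa7 (2543 and 2518) and Ndufa1 (2579 and 2653) had nearly equal signals, although 4 further probe sets of Ndufa7 were lower, by up to 1.68-fold. A second probe set of Ndufa3 was 1.17-fold higher, with 2527 and 2947.

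The other end of complex I was taken by a pair of related genes. Ndufa4l2, a relative of Ndufa4 known as a hypoxia-inducible gene that lowers complex I activity, was below background in the heterozygote (4.28) and read 65.1 in the knockout, at least 3.65-fold higher. It is the only member past 2-fold. Its ratio rests on 1 dim probe set, and with a pseudocount of 50 its log2 ratio was 1.08. Ndufa4, named for complex I and since assigned to complex IV, read 1553 and 2245, 1.45-fold higher. Ndufb2 read 1003 and 1158, and Ndufv3, a small accessory subunit near the flavoprotein, 1853 and 2092. The second probe set of Ndufb2 above background was slightly lower in the knockout, with 764 and 739. A hypoxia response list, drawn up after the member values were seen, had 14 measured genes with a median log2 ratio of 0.05. Past 2-fold lay 1 upward and 0 downward (all measured genes: 6.30% and 3.46%): Adm, which encodes adrenomedullin, read 337 and 733. At 1.5-fold, 4 were higher and 3 lower (all measured genes: 15.9% and 10.5%). The higher ones were Adm, Lox (6001 and 11266), P4ha2 (476 and 763) and P4ha1 (533 and 814). The lower ones were Ddit4 (336 and 198), Car9 (75.3 and 44.9) and Bnip3 (646 and 392). Vegfa (90.8 and 106) and Pdk1 (196 and 156) were under 1.5-fold.

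**Figure D2:**
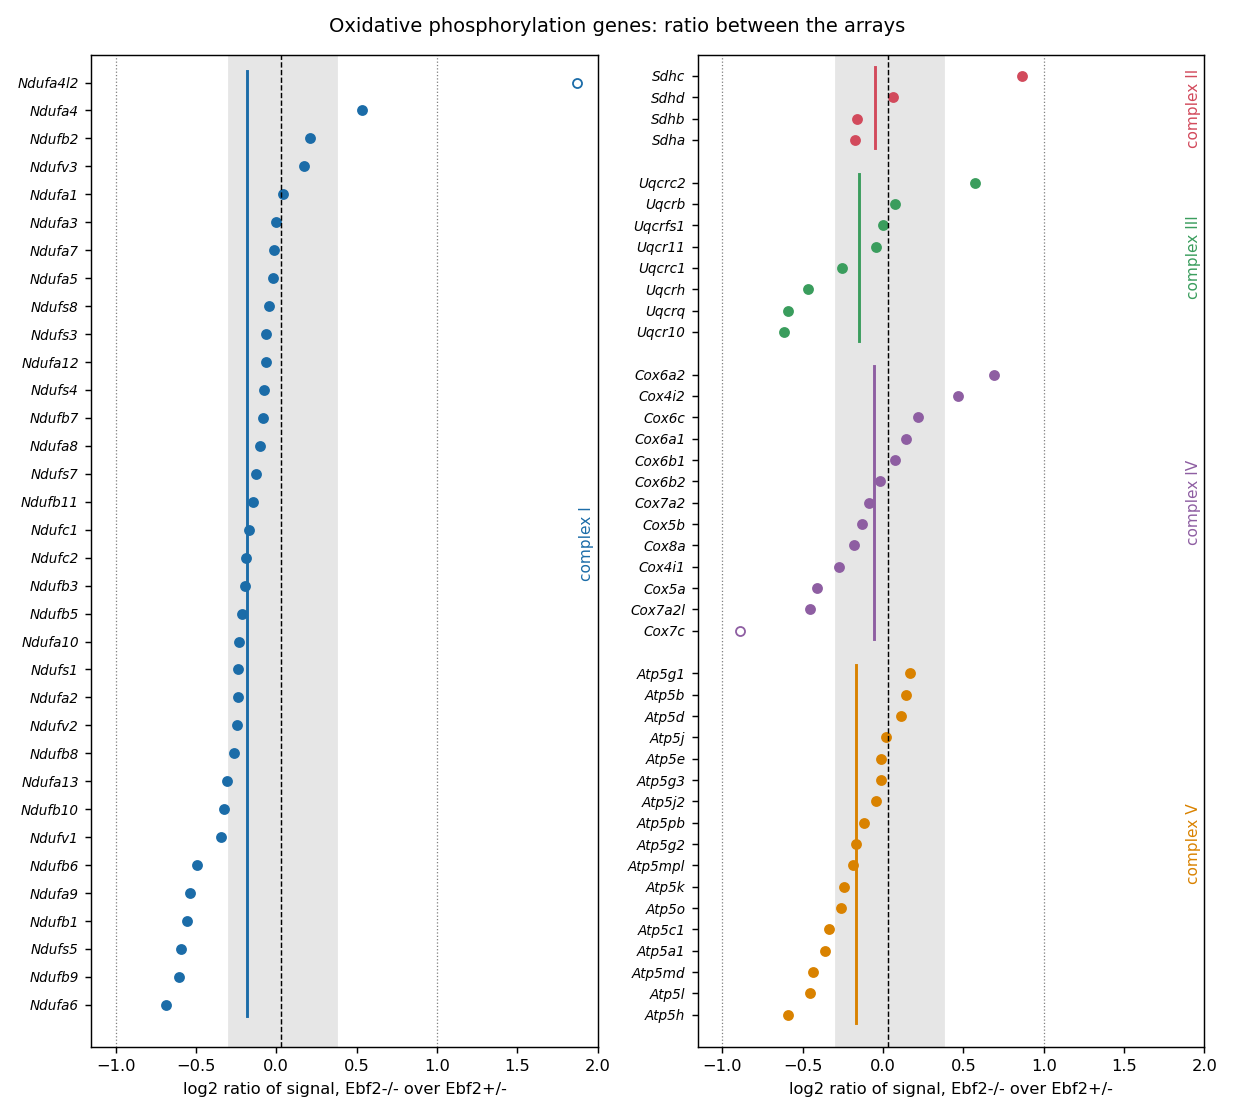
Log2 ratio of knockout over heterozygote signal for the 76 measured members with a ratio, sorted within each complex; open circles (Ndufa4l2, Cox7c) were below the floor on 1 array, so their ratio is a bound. Coloured lines are the medians of the complexes, the dashed line and grey band the median (0.03) and quartiles (-0.30 to 0.38) of all 11785 measured genes, and dotted lines 2-fold. Most members of complexes I and V lie left of the dashed line.

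Complex II, succinate dehydrogenase, links the citric acid cycle to the chain, and its 4 genes were split by role. The catalytic flavoprotein Sdha read 1275 and 1131, and the iron-sulphur subunit Sdhb 1718 and 1537, 1.13-fold and 1.12-fold lower in the knockout. The membrane anchors were not lower by their brightest probe sets. Sdhc read 259.8 and 474, 1.82-fold higher, and its second probe set 77.9 and 181, 2.32-fold higher, so both gave the same direction. Sdhd read 573 and 598, but its second, dimmer probe set read 116 and 42.7, 2.71-fold lower. The second probe set of Sdha above background also opposed the first, with 646 and 897. The median of the 4 genes was -0.05, and -0.005 with the mean over each gene's probe sets above background on both arrays, so it gave the complex no clear direction.

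Complex III passes electrons from ubiquinol to cytochrome c. Of its 8 genes 6 were lower in the knockout, with a median log2 ratio of -0.15; the 5 small subunits had a median of -0.47 and the core and Rieske proteins one of 0.00. Uqcr10 read 1359 and 887, 1.53-fold lower, Uqcrq 1495 and 994, with a log2 ratio of -0.59, and the hinge protein Uqcrh 3567 and 2580, with a log2 ratio of -0.47. For Uqcrh a second probe set gave 3295 and 2112. Uqcr10 was less uniform, with 326 and 236 and with 142 and 148 by its other probe sets. The Rieske iron-sulphur protein Uqcrfs1 read 849.6 and 849.5, equal signal. The core protein Uqcrc1 read 912 and 764, while Uqcrc2 read 953 and 1414, 1.48-fold higher, and 834 and 890.1 by its other probe set. Uqcrb, which had the brightest probe set among the members, read 10859 and 11428, and 1021 and 952 by its other probe set.

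Complex IV, cytochrome c oxidase, was mixed in direction. Of 14 measured genes 8 were lower in the knockout, and the median log2 ratio was -0.05. It stood at 0.01 without the probe sets that can match several transcripts and also with Ndufa4 moved here and Cox7a2l left out. These counts and medians include Cox8c, which received no fold and enters as higher, with a log2 ratio of 0.04 set by the floors. With no floor the median of the complex was -0.11. The direction of the complex is not settled. Among the isoforms used in all tissues 6 of 9 measured were lower. Cox4i1 read 4271 and 3534, 1.21-fold lower, and Cox5a 2150.2 and 1617, 1.33-fold lower and lower by all 3 probe sets. Cox7a2l, a member by symbol but not one of these 9, read 1337 and 975, 1.37-fold lower and lower by all 3 probe sets. By their brightest probe sets Cox6c (2890.5 and 3367), Cox6a1 (6925 and 7643) and Cox6b1 (5689 and 5989) had the higher signal in the knockout, under 1.2-fold. The second probe set of Cox6a1 was also higher. Those of Cox6c (1655 and 1350, 1.23-fold) and Cox6b1 (3046 and 2913, 1.05-fold) were lower. Cox5b, lower by its brightest probe set, was higher by the others above background on both arrays. Cox7c had the lowest ratio but only a dim probe set of its own, reading 44.1 and 22.3, the latter under the knockout floor: at least 1.85-fold lower, and -0.38 in log2 ratio with a pseudocount of 50.

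The tissue-restricted isoforms of complex IV, apart from Cox6b2, were dim or below background on both arrays. Cox7a1 and Cox8b, used in heart, muscle and brown fat, read 14.2 and 1.0, and 2.94 and 2.31, all under the floors. Cox6a2, the isoform of heart and skeletal muscle, read 54.7 and 88.2, 1.61-fold higher, and Cox4i2, a lung isoform induced by hypoxia, 25.8 and 35.8, 1.38-fold higher. The Cox4i2 signals lay near the floors of 17.8 and 23.8, which differ in the same direction. Cox6b2, known from testis, read 293 and 288, 1.02-fold lower in the knockout. Cox8c, also known from testis, read 23.2 and 17.0 and received no fold, because the signal above background was still under the knockout floor. The isoforms of brown fat were thus not seen on either array, and Ucp1, the uncoupling protein that defines brown fat, read 0.88 and 0.73. Of 9 brown adipocyte markers 3 were measured and 0 were past 2-fold (all measured genes: 6.30% upward and 3.46% downward). Of 12 skeletal muscle markers 3 were measured, with Acta1, skeletal actin, at 45.0 and 105. The part of muscle RNA in the Cox6a2 signal was not tested.

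Complex V, ATP synthase, was lower in 13 of its 17 genes, with a median log2 ratio of -0.17. In the catalytic head and central stalk Atp5a1 read 2623 and 2040, 1.29-fold lower, and Atp5c1 3528 and 2800.1, 1.26-fold lower, while the catalytic beta subunit Atp5b read 2654 and 2928, 1.10-fold higher. The dimmest probe set of Atp5a1 opposed the others, with 49.9 and 93.3. The c-ring, whose rotation is driven by protons, is encoded by 3 genes that give the same mature protein: Atp5g1 read 1234 and 1389, Atp5g2 2172 and 1935, and Atp5g3 4488 and 4440, all within 1.13-fold of equal signal. The delta and epsilon subunits of the stalk read 1959.6 and 2119 (Atp5d) and 1256 and 1246 (Atp5e). In the peripheral stalk, which holds the head still, Atp5h had the lowest ratio of the complex, 3289 and 2184, 1.51-fold lower, and 2456 and 2245 by its other probe set, 1.09-fold lower. All 5 small membrane subunits were lower, with a median of -0.24, among them Atp5l (2260.3 and 1652) and Atp5md (2483 and 1832), 1.37-fold and 1.36-fold lower.

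For 40 member genes more than 1 probe set exceeded background on each array. All of them were lower in the knockout for 23 genes and all higher for 4, Sdhc, Uqcrc2, Cox6a1 and Atp5d, and they were mixed for 13. Of the 133 member probe sets above background on both arrays 101 were lower (75.9%, against 50.2% of the 16457 such probe sets of all genes). The range between the probe sets of a member had a median of 0.25 in log2 ratio. That range describes single genes. It is not a measure of error for the members' median, which lay 0.18 under that of all genes. The widest splits were those of Sdhd, Ndufb8 (1102 and 917 against 28.4 and 61.2) and Atp5a1, in each of which the dimmer probe set opposed the brighter.

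**Figure D3:**
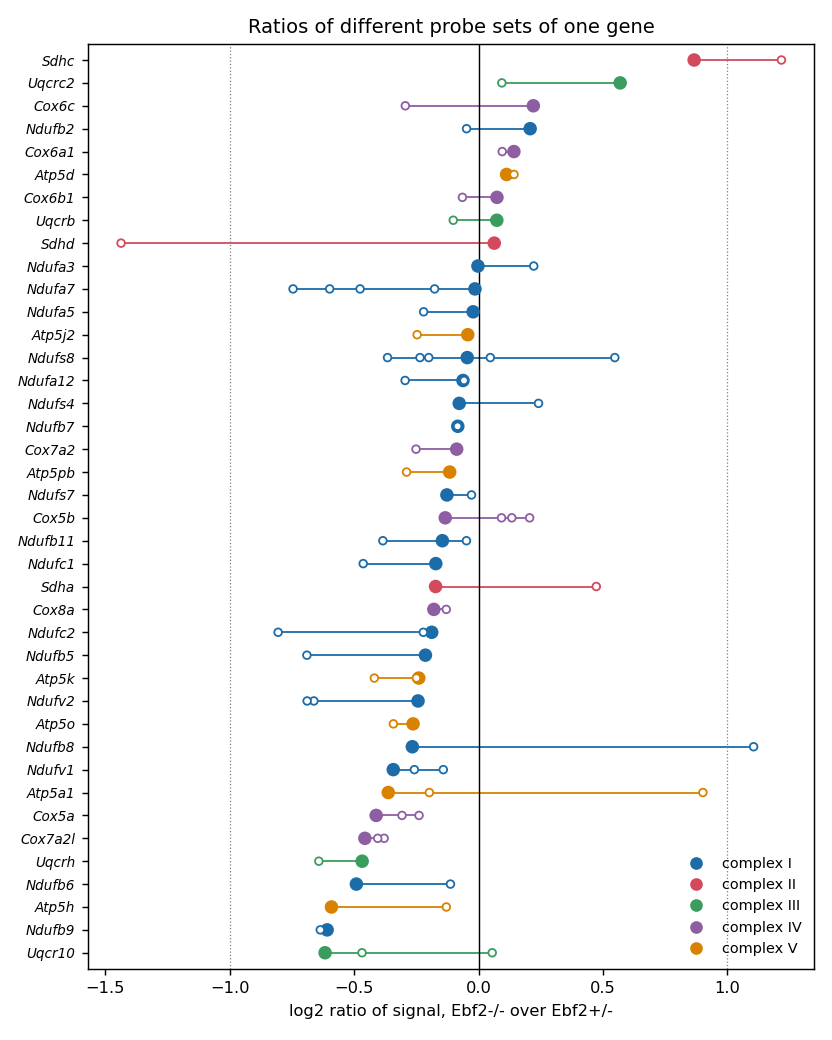
Log2 ratio of knockout over heterozygote signal for every probe set above background on both arrays, for the 40 members with several; the large filled point is the brightest probe set, which stands for the gene, small open points are the others, and dotted lines are 2-fold. In 23 genes all points lie left of equal signal and in 4 all lie right.

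Other genes of mitochondria were compared as lists, beside the 0.03 of all measured genes. For the counts in these and the later lists, 47.9% of all measured genes were lower. Past 2-fold lay 6.30% of them upward and 3.46% downward. Subunits and partners outside the symbol rule were all lower in the knockout (6 of 6, median -0.22; 0.15 without the probe sets that can match several transcripts): cytochrome c, Cycs, read 2429 and 1901, cytochrome c1, Cyc1, 958 and 949, and Higd2a, a factor of complex IV assembly, 1568 and 922, 1.70-fold lower. Of 42 assembly factors 27 were lower (median -0.16), and past 2-fold lay 1 upward and 0 downward; Timmdc1, which assembles complex I, read 40.2 and 116, 2.90-fold higher by its 1 probe set, and Sdhaf3, which matures complex II, 171 and 101, 1.69-fold lower. Of 12 genes of the citric acid cycle 10 were lower (median -0.20) and 0 passed 2-fold, with Sucla2, a subunit of succinyl-CoA ligase, at 1158 and 676. The mitochondrial ribosome, which makes the subunits encoded in mitochondrial DNA, was lower in 58 of 76 genes (median -0.19; past 2-fold were 0 upward and 1 downward, Mrpl54 with 255 and 127). The proteins of the cytosolic ribosome did not share this: 18 of 44 were lower, the median was 0.08, and 3 passed 2-fold upward, all from dim probe sets (Rpl27a with 33.2 and 152, Rpl39 with 19.5 and 68.5, Rpl12 with 51.4 and 106). That median, set against all genes, was 0.05; it was -0.01 after quantile normalization.

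Genes that maintain and transcribe mitochondrial DNA had a median of -0.42 over 12 genes, 9 of them lower and 1 at least 2-fold lower. The median was -0.24 with a pseudocount of 50 and -0.12 with the mean over probe sets above background. The transcription factor Tfb2m read 203 and 101, 2.02-fold lower, the DNA-binding protein Ssbp1 772 and 501, and the polymerase Polrmt 175 and 120 (log2 ratio -0.55), whereas the packaging factor Tfam read 163 and 159. The 1 probe set named for a gene of mitochondrial DNA, ND5 of complex I, read 9022 and 10404, 1.15-fold higher. Regulators of mitochondrial biogenesis were split, with 6 of 12 measured genes lower and a median of 0.02. Ppargc1a was below background on both arrays, Nrf1 read 51.4 and 47.9, and Gabpa 157 and 205, while its partner Gabpb1 read 44.4 and 90.9, 2.05-fold higher, with 45.9 and 19.4 by its other probe set.

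Of 18 measured glycolytic genes 11 were lower, with a median of -0.05; 1 passed 2-fold upward and 1 downward. The phosphofructokinase Pfkl read 163 and 426, 2.61-fold higher, and 113 and 215 by its other probe set above background. Aldoc, the aldolase of brain, read 66.1 and 19.2, at least 2.78-fold lower. Lactate dehydrogenase Ldha read 4090.3 and 4041, and the glucose transporter Slc2a1 374 and 373. Of 10 genes around pyruvate dehydrogenase 5 were lower (median -0.07); the median was 0.18 without the probe sets that can match several transcripts and -0.24 with the mean over probe sets above background, so no direction is given. The kinase Pdk4, which inhibits the complex, read 30.9 and 84.4, 2.73-fold higher, and the subunit Pdhx 116 and 56.9, 2.05-fold lower. Carriers and channels of the mitochondrial membranes had a median of -0.07 over 6 genes, and the channel Vdac1 read 3592 and 4420.5.

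**Figure D4:**
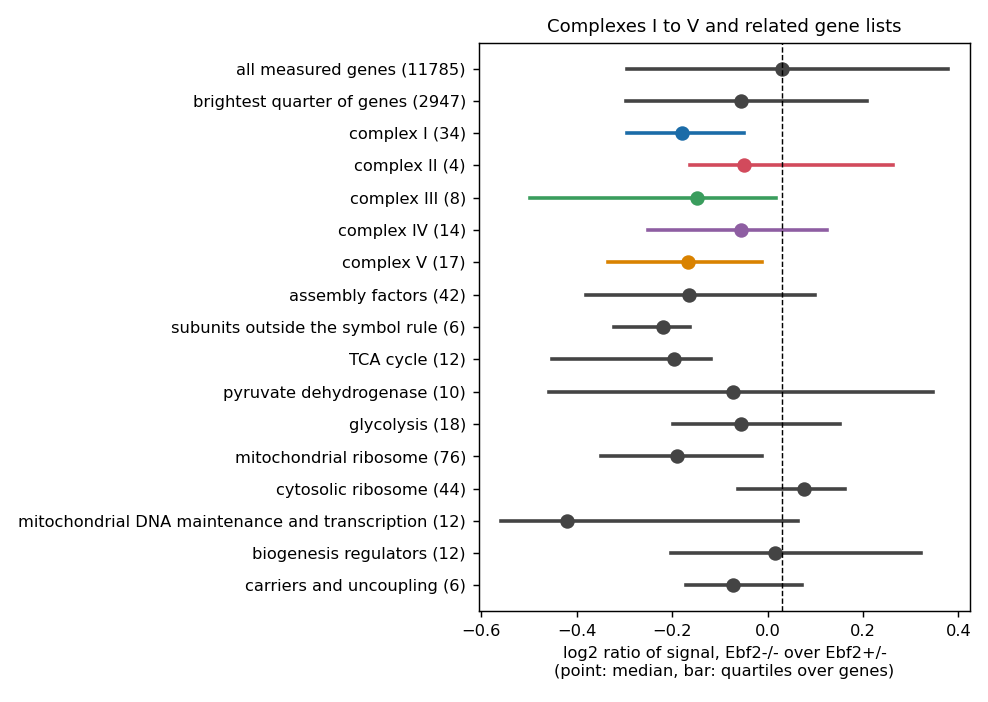
Median (point) and quartiles (bar) of the log2 ratio of knockout over heterozygote signal over the measured genes of each complex and related list, with the number of genes in brackets; the dashed line is the median of all measured genes, 0.03. Complexes I, III and V, the assembly factors, the citric acid cycle and the mitochondrial ribosome have medians between -0.15 and -0.20, left of that line, and the cytosolic ribosome lies right of it, though not after quantile normalization.

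Markers of other cells moved between the arrays as well, and their part in the respiratory genes was not tested. Over all measured genes 6.30% passed 2-fold upward and 3.46% downward. All 17 measured macrophage and leukocyte genes, of 18 listed, were past 2-fold downward, and their summed signal was 15390.2 and 4257; Itgam was below background on both arrays. The 12 measured chondrocyte genes, of 16 listed, included 7 past 2-fold downward and summed to 15499.7 and 5629; Matn1, Matn3, Snorc and Col10a1 were below background on both. The 6 measured adipocyte genes, of 10 with a probe set of their own, had 5 past 2-fold upward and 1 downward and summed to 818 and 2893. Plin4, Cidec, Retn and Lep were below background on both, and Plin1 and Cfd, also planned, had no such probe set. The 10 proliferation genes had 1 past 2-fold upward and 0 downward and summed to 5329.9 and 5931. The 6 measured osteoblast genes, of 9 with a probe set of their own, summed to 26329 and 45591. Runx2, Spp1, Bglap and Bglap1 were also planned but had no probe set with their symbol alone, so they were not read. Of the 6 measured, 5 had the higher signal in the knockout, among them the collagen gene Col1a1 with 5478 and 12784. The transcription factor Sp7 had the lower, with 83.7 and 53.3, while the mature markers Ibsp, Dmp1 and Phex were below background on both arrays.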

How the data were processed

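Expression was measured on Affymetrix mouse arrays, 1 per genotype. The deposited intensity values are the authors' MAS5 signals, per the submitters' processing notes, on a linear scale, with no version named. Both arrays have the same mean, 100.001, once 2% of values are trimmed at each end; a change common to most genes is removed by such scaling. The number of arrays limits the precision.

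Gene symbols came from the platform annotation: 34958 probe sets had 1 symbol, 932 several and 9211 were not listed. A gene was read by its brightest probe set (mean of log2 signals over both arrays). Signals under the floor were set to it before the ratio was taken; where only 1 array was above it the fold is a bound ("at least"), and where that signal did not exceed the other array's floor no fold is given. Ratios are given by size, against a reference of 2-fold. The procedure was tested on simulated data only for changes planted well past 2-fold, so that test does not bear on the smaller differences given here. Members, lists and rules were chosen with earlier results of these data known. Named are Ebf2, members past 2-fold, the 3 highest and 3 lowest per complex, isoform pairs, the core and catalytic subunits and up to 3 genes per list; others were chosen after their values were seen. Alternatives changed the probe set, the floor, the scaling and the gene set. Python 3.11.15, pandas 2.3.3 and statsmodels 0.14.6 were used.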

Additional observations from a re-analysis of the deposited data

How the results depend on the processing

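The distance of each complex's median log2 ratio from that of all measured genes was recomputed under 13 alternatives; spike-in scaling cannot change it, which leaves 12 that could. It stayed below 0 for complexes I, III and V in those 12, from -0.33 to -0.12, -0.20 to -0.09 and -0.33 to -0.11, and for the members together from -0.22 to -0.09. For complexes II and IV it stayed below 0 except beside the brightest 25% of genes, where it was 0.01 and 0.0018. With the mean over all probe sets complex I stood at -0.33; there the probe sets below both floors enter with a ratio set by the floors, and the median of all genes itself went to 0.13. With the mean over probe sets above the floor on both arrays, chosen after seeing the data, complex I stood at -0.24. Without probe sets ending in _s_at, _x_at or _a_at complex II stood at -0.21 and complex V at -0.33. Genes with no other measured probe set dropped out there, so the medians are over fewer genes. Among those dropped were Sdhc, the highest of complex II, and Atp5d, Atp5e, Atp5g1 and Atp5o of complex V. The count at least 2-fold higher was 2 with the mean over all probe sets and 2 without those endings, 0 where both arrays had to exceed the floor, 0 with members by present knowledge, 0 for members in the brightest 25% (an alternative chosen after seeing the data) and 3 at 1.5-fold. The count at least 2-fold lower was 1 with lowess, 1 with spike-in scaling and 7 at 1.5-fold. Of 76 members 40 were lower and 8 higher in every setting run. Leaving out spike-in scaling and the mean over all probe sets, whose shifts are partly set by construction, these counts were 45 and 14.

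Among related lists, as distance from all genes, the mean over all probe sets gave -0.14 for subunits outside the symbol rule, -0.36 for pyruvate dehydrogenase, -0.19 for glycolysis, -0.055 for the cytosolic ribosome (its own median stayed at 0.08), -0.22 for mitochondrial DNA maintenance, -0.12 for biogenesis regulators and -0.21 for carriers. Without probe sets of those endings the values were 0.10 for subunits outside the symbol rule, -0.35 for the citric acid cycle and 0.14 for pyruvate dehydrogenase. The mean over probe sets above the floor gave -0.074 for subunits outside the symbol rule, -0.25 for pyruvate dehydrogenase, -0.13 for mitochondrial DNA maintenance and 0.094 for biogenesis regulators. Mitochondrial DNA maintenance was -0.21 with a pseudocount of 50, and over genes above the floor on both arrays it was -0.34 and biogenesis regulators 0.12. Other causes were not tested. No paired analysis was possible because each genotype has 1 array, and no replicate could be left out.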

Other observations

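Some subunits share their probe sets with a close copy and so stayed outside the comparison. The probe sets for Ndufb4 and its copies Ndufb4b and Ndufb4c read 1649.8 and 1249 in the heterozygote against 1243 and 846 in the knockout, whereas the probe set named for Ndufb4 alone was below background on both arrays (0.28 and 2.69). A probe set shared by Ndufs5 and its pseudogene read 1168 and 847, a log2 ratio of -0.46, beside -0.59 for the probe set of Ndufs5 alone. The probe set of Ndufa11 and Ndufa11b read 1571 and 1588, and that of Ndufs6 and Ndufs6b 773 and 813.

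By kind of probe set, the members above background on both arrays had a median log2 ratio of -0.17 over 54 probe sets that match 1 transcript (0.02 over all 11331 of that kind), -0.21 over 37 ending in _a_at (-0.06 over 2688), -0.15 over 16 ending in _s_at (-0.05 over 1289) and -0.16 over 26 ending in _x_at (-0.02 over 1147).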
